A study of Mus musculus with 4 samples.

Results

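Epithelial and mesenchymal identity was read from 10 genes in CT26 and MC38, both mouse colorectal cancer cell lines. The genes were Cdh1, Epcam, Krt8 and Krt18 on the epithelial side, Cdh2 and Vim on the mesenchymal side, and the transcription factors Zeb1, Zeb2, Snai1 and Snai2. They were chosen by gene symbol, and all 10 were found among the 51905 genes measured. Each line had been infected with lenti-shGFP, the control hairpin, or with lenti-shmaurka-1, a hairpin that targets Aurka, the gene of the mitotic kinase Aurora-A. Infected cells were selected with puromycin, all carried the genotype label WT, and RNA was collected 48 h after seeding. A single library stood for each of the 4 combinations of line and hairpin, and a single Aurka hairpin was used. CT26 was grown in RPMI-1640 and MC38 in DMEM, so line and medium cannot be told apart. The submitters gave both lines the tissue colon, with the cell type fibroblast for CT26 and epithelial cell for MC38.

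Epithelial cells hold to each other through E-cadherin, the product of Cdh1, and build their intermediate filaments from pairs of keratins. In an epithelial to mesenchymal transition, E-cadherin and keratins give way to N-cadherin, the product of Cdh2, and to vimentin filaments. Transcription factors of the Snail family (Snai1, Snai2) and the Zeb family (Zeb1, Zeb2) are known to drive this change, in part by binding E-box sequences in the promoters of epithelial genes. In colorectal cancer the same shift is linked to invasion at the tumor edge.

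The upstream sequences of 4 of the genes are printed because the levels of these genes stand out below. No level or ratio was drawn from the sequences. Krt8 and Krt18 encode the partner keratins of simple epithelium and were measured at very different levels in CT26, Epcam was near 0 everywhere, and Vim was abundant everywhere. Each sequence is the 250 bases before the RNA start, from RefSeq on GRCm38.p6, on the strand of the gene. Krt8 lies at chr15:102004343-102004592 (minus strand), Krt18 at chr15:102027966-102028215 (plus strand), Epcam at chr17:87635729-87635978 (plus strand) and Vim at chr2:13574061-13574310 (plus strand). Capitals mark CACCTG or CAGGTG, which are one E-box read on either strand and a case of the general form CANNTG, and TATAAA, searched on the printed strand only.
Krt8: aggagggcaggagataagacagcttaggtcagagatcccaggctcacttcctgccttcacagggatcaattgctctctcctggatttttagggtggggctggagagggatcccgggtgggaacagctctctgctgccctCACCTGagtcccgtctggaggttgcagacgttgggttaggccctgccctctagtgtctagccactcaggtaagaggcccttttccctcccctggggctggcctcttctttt
Krt18: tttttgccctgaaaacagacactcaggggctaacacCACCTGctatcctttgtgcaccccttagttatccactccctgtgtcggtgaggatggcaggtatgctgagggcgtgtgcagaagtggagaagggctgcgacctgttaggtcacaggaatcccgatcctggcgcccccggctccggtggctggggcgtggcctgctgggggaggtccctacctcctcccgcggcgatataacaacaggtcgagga
Epcam: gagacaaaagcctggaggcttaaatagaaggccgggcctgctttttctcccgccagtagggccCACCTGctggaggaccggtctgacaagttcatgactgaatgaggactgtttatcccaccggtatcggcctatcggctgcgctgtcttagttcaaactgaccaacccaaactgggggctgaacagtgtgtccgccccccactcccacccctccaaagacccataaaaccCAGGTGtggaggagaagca
Vim: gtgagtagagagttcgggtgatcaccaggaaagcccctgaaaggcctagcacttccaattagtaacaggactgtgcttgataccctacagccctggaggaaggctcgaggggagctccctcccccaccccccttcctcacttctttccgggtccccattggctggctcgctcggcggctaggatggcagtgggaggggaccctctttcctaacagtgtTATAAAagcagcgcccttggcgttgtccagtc

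The E-box letters stood once upstream of Krt8, at position -111 from the RNA start, and once upstream of Krt18, at -214. Epcam held 2 such matches, at -187 and -19. Vim held none in this window and had TATAAA at -32. Of 32851 mouse promoter windows of the same length, 17.2% held at least 1 E-box of this form, 2.06% held 2 or more, and 7.59% held TATAAA. Of the other members with a window, Snai1 had 1 E-box match at -126 and Zeb2 had none in its 4 windows. A match describes the letters of the window and is not a measured binding site. The RNA starts of Krt8 and Krt18 lie 23874 bp apart on chromosome 15 and point away from each other, so the partner genes are close neighbors.

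Totals of 22207768 to 23752269 fragments were recovered for the 4 libraries, so depth was nearly equal. Aurka, the targeted gene, was lower in both knockdown libraries, with log2 ratios of -2.28 in CT26 and -2.44 in MC38. Levels are given here in FPKM (fragments scaled to transcript length and library total) wherever genes are compared with each other, and in CPM (counts scaled to library total, after TMM) wherever libraries are compared. Intervals at the 95% level on fragments cover counting error only. They compare 2 libraries, or, for a fold between lines over both hairpins, the pooled libraries of each line, and then leave out the spread between libraries of a line. Markers of other cells were low. Ptprc and Cd3e, which mark leukocytes and T cells, had at most 3 fragments in any library, and 3 of the 7 leukocyte markers were at or under 3 fragments everywhere. The 7 leukocyte markers summed to 119 to 159 fragments in the CT26 libraries and 212 to 257 in those of MC38, and the 5 endothelial markers to 52 to 59 and 154 to 259. Most of the leukocyte fragments were of Cd68 and Lyz2, and Lyz2 had 37 and 31 in CT26 and 98 and 69 in MC38. In bulk RNA, fewer cells of a type and less RNA per cell cannot be told apart.

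Cdh1 and Epcam, the defining adhesion genes of colon epithelium, were near 0 in all 4 libraries, including those of MC38, whose label is epithelial cell. Vim, Zeb2 and Snai2 were abundant in both lines. Among the 10 genes the lines separated on Krt18, and Cdh2 and the 4 transcription factors were also higher in CT26.

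**Figure D1:**
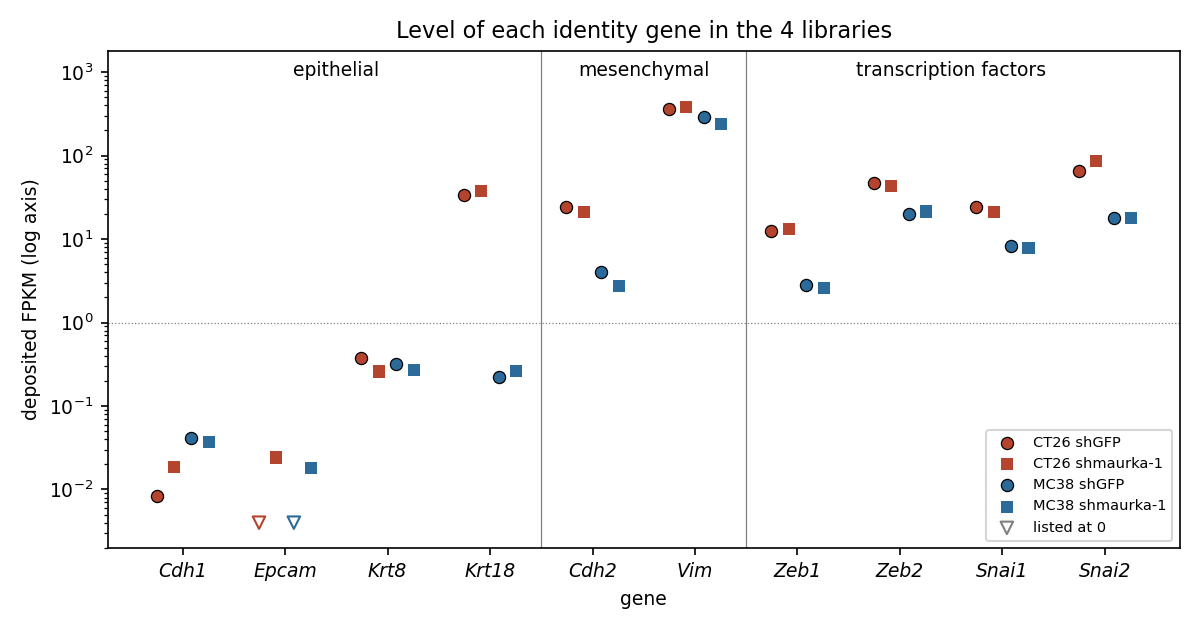
Deposited FPKM (log axis) of the 10 identity genes, each point 1 library, circles for shGFP and squares for shmaurka-1, CT26 in red and MC38 in blue, with open triangles for values listed at 0 and a dotted line at 1 FPKM. Cdh1, Epcam and Krt8 lie under the line in every library, Krt18 lies near 33.7 to 37.4 FPKM in CT26 and near 0.222 to 0.264 in MC38, and Vim lies highest in every library.

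Cdh1 (ENSMUSG00000000303, chromosome 8, 106603351 to 106670246), which encodes E-cadherin, had 1 fragment in CT26 shGFP, 2 in CT26 shmaurka-1, 6 in MC38 shGFP and 4 in MC38 shmaurka-1. In FPKM these were 0.00838, 0.0188, 0.0418 and 0.0369. Both MC38 libraries lay above both CT26 libraries, a pattern shown by 43.9% of all genes tested, but on counts too small to separate the lines. Together the MC38 libraries held 10 Cdh1 fragments and those of CT26 held 3, a ratio of 2.61 (95% interval 0.673 to 14.8). Cdh1 stayed under the minimum mean of 10 counts and was not tested.

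Epcam (ENSMUSG00000045394, chromosome 17, 87635979 to 87651106), which encodes an adhesion protein of epithelial cells, had 0 fragments in both shGFP libraries and 1 in each shmaurka-1 library. A count of 0 allows up to 3 fragments, or 0.143 CPM in CT26 shGFP and 0.114 CPM in MC38 shGFP. Epcam was therefore not detectable at this depth in the control cells of either line, and no fold was formed.

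Krt8 and Krt18 form one filament together in simple epithelium, and CT26 had only the Krt18 RNA at a high level. Krt8 (ENSMUSG00000049382, chromosome 15, 101996711 to 102004342) had 21 fragments in CT26 shGFP, 13 in CT26 shmaurka-1, 22 in MC38 shGFP and 18 in MC38 shmaurka-1. Its FPKM values were 0.371, 0.259, 0.322 and 0.270, and the lines overlapped. Krt18 (ENSMUSG00000023043, chromosome 15, 102028216 to 102032026) had 1516 fragments in CT26 shGFP, 1485 in CT26 shmaurka-1, 12 in MC38 shGFP and 14 in MC38 shmaurka-1. Its FPKM values were 33.7, 37.4, 0.222 and 0.264, with a wide gap between the lines. In FPKM, Krt18 stood 90.8 times above Krt8 in CT26 shGFP and 144 times above it in CT26 shmaurka-1. In MC38 the 2 keratins were alike and low, with Krt18 to Krt8 ratios of 0.690 and 0.976. The pseudogene Krt8-ps held at most 1 fragment in any library.

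Cdh2 (ENSMUSG00000024304, chromosome 18, 16588877 to 16809246), which encodes N-cadherin, had 2445 fragments in CT26 shGFP, 1914 in CT26 shmaurka-1, 486 in MC38 shGFP and 314 in MC38 shmaurka-1. Its FPKM values were 24.2, 20.9, 4.03 and 2.73, so both lines expressed it and CT26 more. Cdh2 exceeded Cdh1 in FPKM in every library, by 2891 and 1114 times in CT26 and by 96.5 and 73.9 times in MC38. These ratios rest on the few Cdh1 fragments given above.

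Vim (ENSMUSG00000026728, chromosome 2, 13573927 to 13582826) encodes vimentin, the intermediate filament of mesenchymal cells. It had 15826 fragments in CT26 shGFP, 14721 in CT26 shmaurka-1, 15340 in MC38 shGFP and 12373 in MC38 shmaurka-1. The FPKM values were 357, 383, 291 and 241, which placed Vim between the 99.5 and 99.7 percentile of all genes in each library. In MC38, Vim stood at 1309 and 913 times the FPKM of Krt18. In CT26 those ratios were 10.6 and 10.2.

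The 4 transcription factors were detected in every library and were higher in CT26. Snai2 (ENSMUSG00000022676, chromosome 16, 14705852 to 14709395), which encodes Slug, had 2839 fragments in CT26 shGFP, 3331 in CT26 shmaurka-1, 932 in MC38 shGFP and 923 in MC38 shmaurka-1. Its FPKM values were 65.4, 85.7, 18.05 and 17.9. Snai1 (ENSMUSG00000042821, chromosome 2, 167538195 to 167542814), which encodes Snail, had 878, 659, 343 and 325 fragments in the same order, and 24.5, 21.3, 8.30 and 7.90 FPKM. Snai2 thus exceeded Snai1 in FPKM in each library, by 2.18 to 4.02 times.

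Zeb2 (ENSMUSG00000026872, chromosome 2, 44983632 to 45117395) had 6021 fragments in CT26 shGFP, 5049 in CT26 shmaurka-1, 3143 in MC38 shGFP and 3282 in MC38 shmaurka-1. Its FPKM values were 46.5, 43.6, 19.8 and 21.3. Zeb1 (ENSMUSG00000024238, chromosome 18, 5491503 to 5775467) had 1439, 1447, 358 and 333 fragments in that order, and 12.6, 13.3, 2.78 and 2.58 FPKM. Zeb2 exceeded Zeb1 in FPKM in each library, by 3.69 and 3.27 times in CT26 and by 7.13 and 8.28 times in MC38. Both Zeb genes lie in loci that the files share among several genes, 6 for Zeb1 and 7 for Zeb2. Cdh2 lies in a locus of 2 genes. Some genes of the lists below also lie in shared loci, such as Afdn with 11 genes and Ctnnd1 with 9. The antisense gene Zeb2os held 13 to 35 fragments, and the sources do not state whether counting used strand.

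In FPKM, the order of the 10 genes in the CT26 shGFP library ran Vim, Snai2, Zeb2, Krt18, Snai1, Cdh2, Zeb1, Krt8, Cdh1 and Epcam. Snai1 and Cdh2 were neighbors that did not separate, with 24.5 and 24.2 FPKM. In the MC38 shGFP library the order ran Vim, Zeb2, Snai2, Snai1, Cdh2, Zeb1, Krt8, Krt18, Cdh1 and Epcam. Zeb2 and Snai2 were close there, at 19.8 and 18.05 FPKM, as were Krt8 and Krt18. Krt18 held the clearest change of place, ahead of Cdh2 and Zeb1 in CT26 and behind both in MC38.

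The lines were compared across all genes with edgeR's quasi-likelihood test, with the hairpin as a block, so that the libraries of a line stand in for replicates. Of the 8 identity genes tested, 7 were called, all higher in CT26, whereas 37.5% of the 13984 genes tested were called higher in CT26 and 38.8% higher in MC38. Each of the 8 reached a mean of 10 counts in both lines. In either direction 76.3% of all genes were called, so a call by itself says little and the sizes carry the description. The median difference over the 8 tested genes was 1.82 on the log2 scale, against -0.01 over all genes tested. Both CT26 libraries exceeded both MC38 libraries in CPM for 7 of the 10 genes, a pattern shown by 42.4% of all genes tested. The 2 libraries of a line differ by hairpin and are not stated to be separate cultures. The p-values therefore rest on a spread estimated over all genes from these libraries, not on a spread between replicate cultures.

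Krt18 held the widest gap of the 10 genes. It was at 72.1 and 75.9 CPM in the CT26 libraries and at 0.458 and 0.547 CPM in those of MC38, a log2 difference of 7.15 ± 0.21 (SE, edgeR, adjusted p = 7.0e-243). DESeq2's Wald test gave 7.16 with a wider SE of 0.36. Within shGFP the log2 ratio was 7.17 (95% interval 6.49 to 8.25), and within shmaurka-1 it was 7.01 (6.36 to 7.99). Over both libraries, 3001 fragments in CT26 stood against 26 in MC38. For Krt8 the CPM values were 0.999 and 0.665 in CT26 and 0.839 and 0.704 in MC38. Its log2 difference of 0.12 ± 0.47 was not called (SE, edgeR, adjusted p = 0.824), and the pooled ratio of 1.08 had an interval from 0.666 to 1.76. An equal level was thus not shown for Krt8, but a gap of the size of Krt18 lay outside its interval.

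Cdh2 stood at 116 and 97.9 CPM in CT26 and at 18.5 and 12.3 CPM in MC38. The lines did not overlap, and the log2 difference was 2.83 ± 0.13 (SE, edgeR, adjusted p = 2.6e-109). Vim was at 753 CPM in both CT26 libraries and at 585 and 484 CPM in MC38, a log2 difference of 0.51 ± 0.09 (SE, edgeR, adjusted p = 2.7e-08). Of the 7 called genes Vim differed least, and with scaling by total counts in place of TMM its difference was 0.14 and was not called (edgeR, adjusted p = 0.140). That scaling moved the median of all genes from -0.01 to -0.38.

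Among the transcription factors, Zeb1 differed most, with 68.4 and 74.0 CPM in CT26 against 13.7 and 13.02 in MC38. Its log2 difference was 2.43 ± 0.13 (SE, edgeR, adjusted p = 7.1e-71). Snai2 stood at 135 and 170.3 CPM against 35.6 and 36.1, a log2 difference of 2.09 ± 0.11 (SE, edgeR, adjusted p = 3.8e-77). For these 2 factors the libraries of each line lay close together beside the gap between lines. Snai1 was at 41.8 and 33.7 CPM against 13.1 and 12.7, a log2 difference of 1.55 ± 0.15 (SE, edgeR, adjusted p = 1.3e-25). Zeb2 was at 286 and 258 CPM against 120 and 128, a log2 difference of 1.14 ± 0.10 (SE, edgeR, adjusted p = 2.2e-30). Of the 4 factors Zeb2 differed least between the lines. These 4 genes and Cdh2 and Krt18 were called in each of the 13 alternatives tried, including those that left out 1 library.

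**Figure D2:**
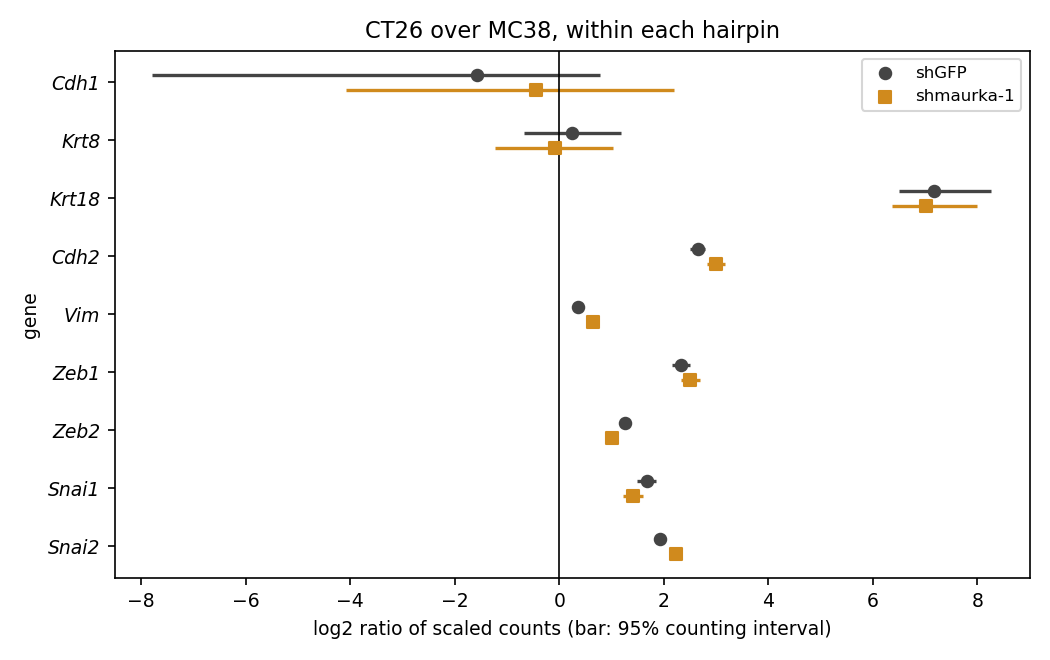
Log2 ratio of scaled counts, CT26 over MC38, for 9 of the identity genes (y axis), computed within shGFP (dark circles) and within shmaurka-1 (orange squares), with bars for the 95% counting interval. Krt18 lies near 7, the bars of Cdh1 and Krt8 cross 0, the other genes lie above 0 with both hairpins, and Epcam is left out because its counts were at or under 3 in every library.

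With Aurka knocked down, the ratio of none of the 8 genes with enough counts passed 1.5-fold or fell under 0.6-fold, the thresholds of the study, in either line. The intervals of Krt8 in both lines and of Krt18 and Cdh2 in MC38 reach past these thresholds, and Cdh1 and Epcam were too low to be read. Over all genes, 3.46% of 12753 passed 1.5-fold and 3.44% fell under 0.6-fold in CT26, and 3.82% and 1.79% of 13836 did so in MC38. Cdh2 was the member that was lower with shmaurka-1 in both lines by more than counting error and passed the test common to both.

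Cdh2 went from 116 to 97.9 CPM in CT26, a log2 ratio of -0.25 (95% interval -0.34 to -0.16). In MC38 it went from 18.5 to 12.3 CPM, a log2 ratio of -0.59 (-0.80 to -0.39), or 0.663-fold. In the test common to both lines, with line as a block, Cdh2 fell by 0.38 ± 0.12 on the log2 scale (SE, edgeR, adjusted p = 0.0483). It was the 1 call among 8 identity genes, while 2.88% of the 11928 genes tested were called, 1.10% of them as lower. The call did not hold in 7 of the 9 alternatives, where the adjusted p ranged from 0.0575 with a minimum mean of 50 counts to 1.00 without the line as a block. The log2 difference stayed between -0.41 and -0.27 over the 9.

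Vim had unlike values in the lines. It was 753 CPM with either hairpin in CT26, a log2 ratio of 0.00 (95% interval -0.03 to 0.03), and went from 585 to 484 CPM in MC38, a log2 ratio of -0.27 (-0.31 to -0.24). In the deposited FPKM the CT26 ratio was 0.10. The common difference of Vim was -0.13 and was not called (edgeR, adjusted p = 0.635). Whether the lines differed in this response was not tested, since 1 library per condition leaves no spread for it.

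The Snail factors had log2 ratios of opposite sign in CT26 and near 0 in MC38. Snai2 went from 135 to 170.3 CPM in CT26, a log2 ratio of 0.33 (95% interval 0.26 to 0.41), and from 35.6 to 36.1 in MC38, a ratio of 0.02 (-0.11 to 0.15). Snai1 went from 41.8 to 33.7 CPM in CT26, a log2 ratio of -0.31 (-0.46 to -0.16), and from 13.1 to 12.7 in MC38, a ratio of -0.04 (-0.27 to 0.18). The ratio of Snai2 to Snai1 in FPKM accordingly went from 2.67 to 4.02 in CT26. Neither gene was called in the common test (edgeR, adjusted p = 0.455 for Snai2 and 0.6999 for Snai1).

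The Zeb factors had log2 ratios within 0.15 of 0. Zeb1 had log2 ratios of 0.11 (95% interval 0.01 to 0.22) in CT26 and -0.07 (-0.29 to 0.15) in MC38. Zeb2 had log2 ratios of -0.15 (-0.20 to -0.10) in CT26 and 0.10 (0.03 to 0.17) in MC38. Their common differences were 0.04 and -0.02 and were not called (edgeR, adjusted p = 0.956 and 0.978).

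The keratins showed no called change. Krt18 had a log2 ratio of 0.07 (95% interval -0.03 to 0.18) in CT26 and of 0.24 (-0.96 to 1.501) in MC38, where it rests on 14 and 12 fragments. Krt8 had log2 ratios of -0.56 (-1.71 to 0.48) and -0.24 (-1.24 to 0.71). The interval of Krt8 in CT26 is wide, so a change of the size measured was not detectable at this depth. The fragments of Cdh1 and Epcam were too few in each library to measure a response of either adhesion gene.

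**Figure D3:**
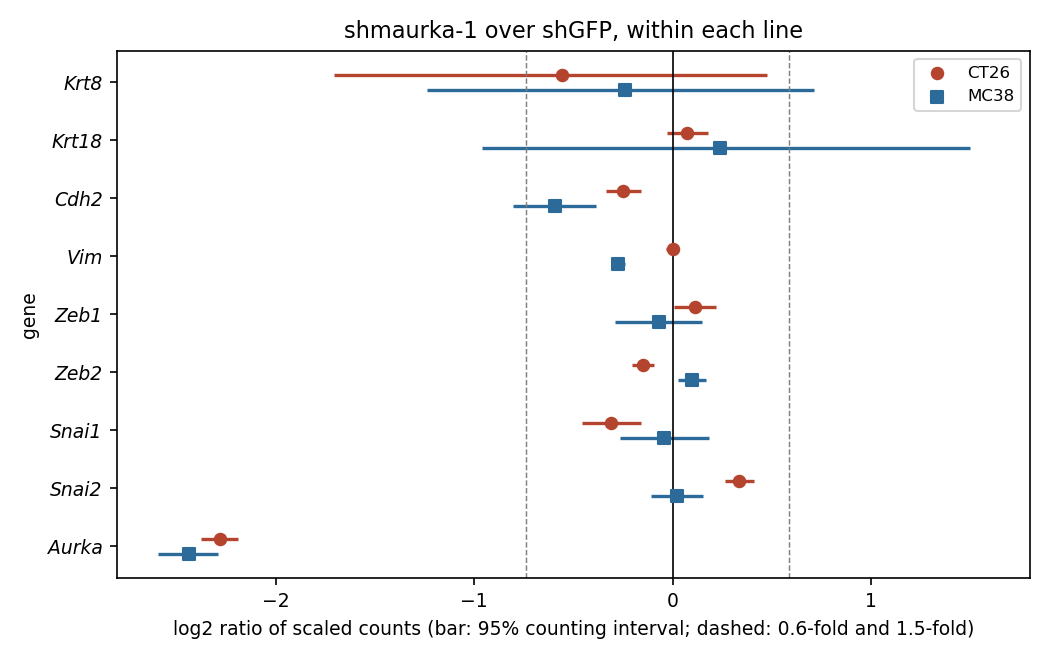
Log2 ratio of scaled counts, shmaurka-1 over shGFP, for the 8 identity genes with enough counts and for Aurka (y axis), in CT26 (red circles) and MC38 (blue squares), with bars for the 95% counting interval and dashed lines at 0.6-fold and 1.5-fold. Aurka lies at -2.28 and -2.44, and the points of the 8 identity genes lie between the dashed lines.

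Other genes of the same programs were read from lists, each given by its counts of calls between the lines, to be read beside the 37.5% and 38.8% of all genes called higher in CT26 and in MC38. A gene that reached the minimum of 10 counts only through the line where it was high had to differ, so its call is a description. Of 13 epithelial regulators, 2 reached the minimum in both lines and both were higher in CT26, and 4 reached it through MC38 alone. Ovol2, a repressor of mesenchymal genes, had 0 fragments in CT26 and 416 over both MC38 libraries, at least 54.3-fold higher in MC38. Esrp1, an epithelial splicing factor, had 0 and 73 fragments, at least 9.53-fold higher in MC38. Elf3, an epithelial ETS factor, had 5 and 498 fragments, 78.1-fold higher in MC38 (95% interval 33.2 to 241). Trp63, which encodes the basal epithelial factor p63, had 2 fragments in CT26 and 189 in MC38, a ratio of 74.1 (20.2 to 616). Klf5 and Grhl1, named after their values were seen, were the 2 that reached it in both lines, and were higher in CT26 by 3.83 and 1.83 on the log2 scale. For the list genes with a fold between lines, 10 of 27 had a fold within 1 hairpin that lay outside the pooled counting interval. Folds against 0 are taken against a floor of 3 fragments in each library.

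The remaining epithelial lists were mostly near the floor. Of 18 junction genes, 6 were tested, 3 were higher in CT26 and 1 in MC38, but 3 of these 4 calls were of genes that did not reach the minimum in both lines. Another 6 of the 18 were at or under 3 fragments everywhere. Tjp3, a tight junction scaffold, had 0 fragments in CT26 and 80 in MC38, at least 10.4-fold higher in MC38. Pkp3 and Pkp2, desmosome plaque genes, had 53 and 30 fragments in CT26 and 14 and 16 in MC38, log2 differences of 2.33 and 1.24. Neither was called by DESeq2's Wald test (adjusted p = 0.0898 and 0.431). The call of Pkp2 was also lost without CT26 shGFP, CT26 shmaurka-1 or MC38 shmaurka-1 (log2 0.55 to 1.44), and its log2 value was 2.50 without MC38 shGFP. It was lost as well with scaling by total counts and without the hairpin block (edgeR, adjusted p = 0.151 and 0.0855). Pkp2 was 1.23-fold higher in CT26 within shGFP and 5.67-fold within shmaurka-1. Tjp1, the scaffold ZO-1, had a log2 difference of 0.24 (edgeR, adjusted p = 0.0131), which turned to -0.13 with scaling by total counts and was not called when any 1 library was left out (log2 0.21 to 0.28). Under that scaling 1 junction gene was called higher in CT26 and 2 in MC38, so the balance turned. Of 8 other keratins, 2 were tested and both were higher in CT26, Krt20 through CT26 alone. Krt20, a keratin of differentiated colon epithelium, had 639 fragments in CT26 and 2 in MC38, a ratio of 408 (95% interval 112 to 3374). Its fitted fold was 2828 without MC38 shGFP and 170 without MC38 shmaurka-1, so the size rests on those 2 fragments. Its CT26 fragments were split into 434 in the shGFP library and 205 in the shmaurka-1 library, and in MC38 it was too low for the common test. Krt80 was 14.6-fold higher in CT26 (13.2 to 16.2), but 21.04-fold within shGFP and 9.63-fold within shmaurka-1. CT26 thus held more Krt18, Krt20 and Krt80 than MC38 while Krt8 was low in both, and Krt7 and Krt19 had at most 13 fragments in any library. Of 13 epithelial surface genes, 4 were tested and none of the 4 reached the minimum in both lines. Vil1, the microvillus protein villin, was at 0 in CT26 and at 67 fragments in MC38, at least 8.75-fold higher there. St14, the protease matriptase, had 0 and 50 fragments, at least 6.53-fold higher in MC38. Cdh17, an intestinal cadherin, had 70 and 4 fragments, 22.3-fold higher in CT26 (8.34 to 84.2), with a fitted fold of 10.7 without CT26 shGFP and 35.01 without MC38 shGFP.

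The mesenchymal lists were measured in both lines. Of 16 matrix genes, all were tested, 6 were higher in CT26 and 4 in MC38, with a median log2 difference of 0.21. With scaling by total counts those counts were 4 and 5 and the median was -0.16. Col1a2, a chain of collagen I, was 10.7-fold higher in CT26 (95% interval 10.3 to 11.1), and Thbs1, thrombospondin, was 3.69-fold higher (3.37 to 4.04). Col6a2 and Col6a1, chains of collagen VI, were 9.81-fold (8.88 to 10.9) and 7.75-fold (7.10 to 8.48) higher in MC38, with folds of 6.61 and 5.86 within shGFP and 14.7 and 10.4 within shmaurka-1. Col1a1, the other chain of collagen I and named after its values were seen, had a log2 difference of 0.46, which was 0.08 and not called with scaling by total counts (edgeR, adjusted p = 0.462) and not called without CT26 shGFP, MC38 shGFP or MC38 shmaurka-1 (log2 0.29 to 0.51). Of 17 mesenchymal surface and cytoskeletal genes, 14 were tested, 7 were higher in CT26 and 3 in MC38. S100a4, also known as fibroblast-specific protein, was 20.2-fold higher in CT26 (18.8 to 21.8; 27.99 within shGFP and 15.2 within shmaurka-1), the receptor kinase Axl 7.55-fold (7.42 to 7.68) and the hyaluronan receptor Cd44 4.49-fold (4.39 to 4.60). Ncam1, a neural and mesenchymal adhesion gene, had 27 fragments in CT26 and 7270 in MC38, 211-fold higher in MC38 (145 to 320.4). Fibroblast markers of that list, named after their values were seen to check the label of CT26, were mixed. Pdgfrb was at 107 and 115 CPM in CT26 and at 50.1 and 63.5 CPM in MC38, while Pdgfra was lower in CT26, at 10.4 and 9.51 CPM against 29.4 and 19.5 (log2 difference -1.26). Acta2 and Fap were at or under 1.90 CPM in each library, and Thy1 had at most 5 fragments.

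Of 11 other transcription factors of the mesenchymal state, 9 were tested, 4 were higher in CT26 and 5 in MC38, and 2 of the 5 reached the minimum through MC38 alone. Prrx1, a homeobox factor of mesenchyme, was 11.1-fold higher in CT26 (95% interval 10.3 to 12.0). Klf8 had 2 fragments in CT26 and 1310 in MC38, a ratio of 513 (142 to 4243). Foxc2 had 0 and 456 fragments, at least 59.6-fold higher in MC38, in a locus that the files share among 210 genes, so its count is uncertain.

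**Figure D4:**
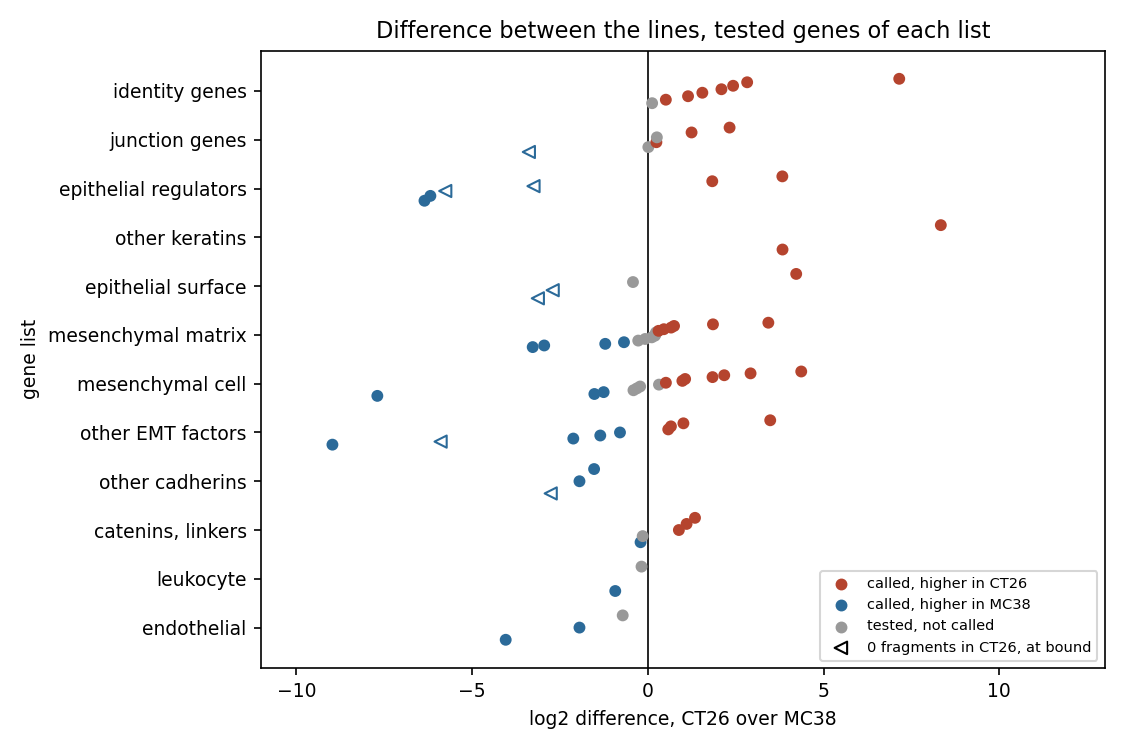
Log2 difference between the lines, CT26 over MC38 (x axis), for the tested genes of each list (y axis), red where called higher in CT26, blue where called higher in MC38, gray where not called, and open triangles at the bound for genes with 0 fragments in CT26. The identity genes called all lie to the right of 0, while the epithelial regulators and the other EMT factors lie on both sides.

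Cadherin partners were also compared, because Cdh1 and Cdh2 act through them. Of 6 other classical cadherins, 3 were tested and all 3 were higher in MC38, Cdh15 through MC38 alone. Cdh5, the endothelial cadherin, had 49 and 254 fragments, 4.06-fold higher in MC38 (95% interval 2.98 to 5.63), but 5.61-fold within shGFP and 2.43-fold within shmaurka-1. Cdh11 had 43 and 160 fragments, 2.92-fold higher (2.07 to 4.18), a call that DESeq2's Wald test did not make (adjusted p = 0.0705). Cdh15 had 0 and 52 fragments, at least 6.79-fold higher in MC38, in the same locus of 210 genes as Foxc2. Of 5 catenins and actin linkers, 3 were higher in CT26 and 1 in MC38. Ctnnd1 (p120 catenin) was 2.51-fold higher in CT26 (2.45 to 2.58), Ctnna1 (alpha-catenin) 2.13-fold (2.09 to 2.18) and Vcl (vinculin) 1.84-fold (1.78 to 1.90). Afdn (afadin) had a log2 difference of -0.21, which was not called without the hairpin block (edgeR, adjusted p = 0.160) or when any 1 library was left out (log2 -0.34 to -0.06). Of the markers of other cells, Lyz2 was 1.92-fold higher in MC38 (1.44 to 2.59), and 2 of 3 tested endothelial markers were higher in MC38, with Emcn, at 3 and 61 fragments, beside Cdh5. Emcn reached the minimum through MC38 alone. The call of Lyz2 was lost with DESeq2's Wald test (adjusted p = 0.257) and without CT26 shmaurka-1 or MC38 shGFP (log2 -0.87 and -0.67). The part of these markers in the differences between lines was not tested. With scaling by total counts, the calls higher in CT26 and in MC38 were 6 and 4 for the mesenchymal surface and cytoskeletal genes, 3 and 5 for the other factors, 3 and 2 for the catenins, 0 and 2 for the leukocyte markers and 0 and 3 for the endothelial ones.

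With the knockdown, 1 gene of these lists was called. Jup, which encodes plakoglobin, a catenin of desmosomes and cadherin junctions, stood at 995 fragments in CT26 shGFP, 493 in CT26 shmaurka-1, 817 in MC38 shGFP and 706 in MC38 shmaurka-1. Its ratio was 0.533-fold in CT26, under the 0.6-fold threshold, and 0.886-fold in MC38, so the common value came mostly from CT26. In the common test it fell by 0.54 ± 0.13 on the log2 scale (SE, edgeR, adjusted p = 0.00426). It was not called by DESeq2's Wald test (adjusted p = 0.465), by limma on FPKM (adjusted p = 0.361 with a pseudocount of 0.1) or without the line block, with log2 values of -0.56 to -0.45 over the alternatives. Over all the lists beside the identity genes, 53 genes were tested for the knockdown, Jup was the 1 called by edgeR, 14 had an unadjusted p under 0.05 (1481 of the 11928 genes over all), and 0 were called by DESeq2's Wald test.

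The genes nearest in profile to Vim over the 4 libraries were Rtn2, Nlgn2 and Mex3d, at Euclidean distances of 0.03, 0.04 and 0.04 on the log2 CPM scale, each profile centered on its mean, among 11539 genes. The genes nearest to Cdh1 were 4930511M06Rik, Fancd2 and Spag4, at 0.10, 0.17 and 0.18. The Cdh1 profile rests on 1 to 6 fragments a library, so its neighbors describe counting as much as level.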

How the data were processed

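RNA from 4 libraries was analysed, 1 for each combination of line and hairpin. The values deposited by the authors were estimated counts and FPKM per gene and library, and the submitters' processing notes name Trimmomatic 0.36, HISAT2, Cufflinks 2.2.1 and Cuffdiff. Those notes name GRCm39, but 99.87% of 18198 genes that share their locus with no other matched a GRCm38 position and 9.54% a GRCm39 position, so positions are given on GRCm38, counted from 1. The deposited counts had been scaled by a factor for each library. Dividing by that factor left 97.1% to 97.7% of nonzero values whole within 0.05, and these recovered fragments served for intervals and for the floor of 3 fragments. The library kit was strand-specific, and whether counting used strand is not given in the sources used here. The genes of the identity set and of the other lists were chosen with earlier results of these data known.

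Estimated counts were rounded and fitted across all genes with edgeR 4.0.16 (R 4.3.3), using TMM scaling, the quasi-likelihood test and Benjamini-Hochberg adjustment, with calls at an adjusted p under 0.05. Lines were compared with hairpin as a block among genes whose mean reached 10 counts, and the knockdown with line as a block among genes with that mean in each line. The prior degrees of freedom came out infinite, so each fit took the spread as known from all genes. The test gives no SE, so the SE printed with it is the absolute log2 difference over the square root of the F statistic. The script was tested on simulated data. Within a line, ratios of scaled counts with 1 count added were read against 1.5-fold and 0.6-fold, with exact conditional binomial intervals. No test was possible there with 1 library per condition.

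All 10 identity genes are named, and from each list at most 4 called genes with the largest difference between lines and at most 2 called for the knockdown. The values of 2 list genes are not reported here. Aurka is named as a check of the labels, and for Cdh1 and Vim the 3 genes nearest in profile among those averaging at least 50 counts. Alternatives were total-count scaling, DESeq2 1.42.0 size factors and Wald test, limma 3.58.1 on log2 FPKM with a pseudocount of 0.1 or 1, no filter on low counts or a mean of at least 50, no block, each library left out and, chosen after seeing the data, the recovered fragments. Upstream sequences came from RefSeq on GRCm38.p6, with a window for 6 of the 10 genes. None was printed for Cdh1, Cdh2, Zeb1 and Snai2. Python 3.11.15, scipy 1.17.1, numpy 2.4.6 and pandas 2.3.3 were used for the other steps.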

Additional observations from a re-analysis of the deposited data

Results flagged for a closer look

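Zeb2 was singled out because its counts moved in opposite directions in the 2 lines with the same hairpin. Its log2 ratio of shmaurka-1 over shGFP was -0.15 in CT26 (95% interval -0.20 to -0.10, from 6021 and 5049 fragments) and 0.10 in MC38 (0.03 to 0.17, from 3143 and 3282 fragments). With the deposited FPKM the CT26 value was -0.09. The intervals cover counting error only, 1 library stood behind each condition, and whether the lines differ was not tested.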

How the results depend on the processing

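Between the lines, the main test called 10671 genes and the 7 identity genes named above. Leaving out 1 library in turn gave 8189 to 9631 calls, and all 7 identity genes stayed called each time, the remaining library of a line being assumed to vary like the others. Dropping the hairpin block, the paired term of this design, gave 10127 calls and the same 7 identity genes. With total-count scaling 3592 genes were higher in CT26 and 7139 in MC38, against 5244 and 5427 with TMM, and Vim was no longer called (0.14). For the knockdown common to both lines, the 344 calls became 35 with DESeq2's Wald test, 6 and 1 with limma on FPKM with a pseudocount of 0.1 and 1, and 0 with no replicate block (11 at an unadjusted p under 0.05). The 1 identity gene called, Cdh2, became 0 with DESeq2's size factors, DESeq2's Wald test, both limma fits, no filter on low counts, a minimum mean of 50 counts and no replicate block, and it stayed called with total-count scaling and recovered fragments. Without the block the residual spread holds the difference between the lines; elsewhere the cause was not tested. Within CT26, 441 genes passed 1.5-fold, 227 in FPKM with a pseudocount of 1 and 194 where the mean had to reach 50 counts. Another 439 fell under 0.6-fold, 97 and 129 under those settings. Within MC38 the counts were 529, 181 and 163 above and 248, 34 and 55 below. Both settings test fewer low genes or shrink their ratios. Depth limits Cdh1, Epcam and Krt8 everywhere and Krt18 in MC38. No paired analysis of the knockdown within a line was possible because each condition has 1 library.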
